A study of Homo sapiens with 6 samples.

Results

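The transcripts described here are those of the human mitochondrial genome. They were taken as every row of the deposited expression table whose chromosome was chrM, which gave 37 of its 36651 genes: 13 protein-coding genes, 2 rRNA genes and 22 tRNA genes. RNA was sequenced from HCT116, an epithelial cell line derived from a human colorectal carcinoma, as 3 siMTA1 libraries and 3 control libraries. The siMTA1 samples are named siMTA in their descriptions and CrMTA1 in their titles, an abbreviation the labels do not explain. The control samples are named Ctrl in their descriptions and WT in their titles, and what they received is not given. MTA1 encodes a subunit of the NuRD chromatin remodelling and deacetylase complex. The labels do not say that the 3 samples of a group came from separate cultures, so p-values measure only how far these samples spread, and that spread may be technical. All libraries were made from RNA selected with oligo(dT), as directional paired-end libraries, and levels are FPKM, that is, fragments per length of the gene and per size of the library.

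The mitochondrial genome is a small circle that encodes subunits of the respiratory chain together with the rRNAs and tRNAs needed to translate them inside the organelle. Both of its strands are copied by the mitochondrial RNA polymerase as long precursors, and most mRNAs and rRNAs are released when the tRNAs that lie between them are cut out. Most mature mitochondrial mRNAs then receive a short poly(A) tail, which for several of them also completes the stop codon. MT-ND6, the only mRNA of the strand that is otherwise nearly all tRNA, is known to carry little or no tail. Mitochondrial tRNAs are not polyadenylated in their mature form, so in oligo(dT)-selected RNA their values can include precursors and incompletely cut transcripts.

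The sequences of the 6 tRNA genes that changed are shown first, because the tRNAs differ in strand as well as in direction of change. They are written 5′ to 3′ in the letters of the RNA strand with T for U, from the GENCODE 29 transcripts on GRCh38, and the capitals mark the anticodon. The first 5 are encoded on the plus strand of the reference and fell in siMTA1 libraries, and MT-TQ is encoded on the minus strand and rose.
MT-TS2 (serine, AGY codons), chrM:12207-12265: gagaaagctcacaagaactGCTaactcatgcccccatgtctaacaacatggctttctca
MT-TG (glycine), chrM:9991-10058: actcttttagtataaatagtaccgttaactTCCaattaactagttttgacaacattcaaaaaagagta
MT-TL1 (leucine, UUR codons), chrM:3230-3304: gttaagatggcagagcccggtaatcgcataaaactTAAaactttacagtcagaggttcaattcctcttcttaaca
MT-TK (lysine), chrM:8295-8364: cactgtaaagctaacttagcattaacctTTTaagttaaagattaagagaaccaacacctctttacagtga
MT-TD (aspartate), chrM:7518-7585: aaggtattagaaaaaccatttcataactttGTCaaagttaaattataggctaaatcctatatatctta
MT-TQ (glutamine), chrM:4329-4400: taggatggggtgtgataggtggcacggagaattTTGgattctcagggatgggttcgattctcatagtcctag

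The last 30 bases of the 5 mRNAs that changed, with MT-CO3 and MT-ATP6 beside them as neighbours that did not pass the test, show how each reading frame ends. Capitals mark the final codon, or the part of it that the genome encodes. The 4 mRNAs that fell end in T or TA, as do MT-CO3 and MT-ND4, which did not pass the test.
MT-ND3: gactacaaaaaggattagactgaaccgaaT
MT-ND2: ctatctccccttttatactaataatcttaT
MT-ND1: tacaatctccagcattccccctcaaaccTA
MT-CYB: taattgaaaacaaaatactcaaatgggccT
MT-ND6: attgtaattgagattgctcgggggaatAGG
MT-CO3: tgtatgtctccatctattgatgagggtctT
MT-ATP6: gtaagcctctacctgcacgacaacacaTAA

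Across the series, the steps between low FPKM values of genes shorter than 150 bases corresponded to 57400000 to 67000000 fragments in siMTA1 libraries and 43400000 to 65300000 in control libraries. That unit was fitted to the same values, so the next share is no separate check. Of the values used, 95.7% to 97.6% came out within 0.05 of a whole fragment, beyond an allowance for rounding of the printed FPKM. MTA1 itself had 44.55, 43.98 and 47.97 FPKM in siMTA1 libraries and 65.9, 67.61 and 66.74 FPKM in control libraries, so its transcript remained at 68.2% of the control level (log2 difference −0.54, limma adjusted p = 0.000376). Epithelial markers were present in all libraries, with KRT19 at 3106 to 3465 FPKM in siMTA1 libraries and 3421 to 3612 FPKM in control libraries, and of the colon markers CDX2 (3.91 to 4.46 FPKM in siMTA1 libraries and 4.3 to 5.05 FPKM in control libraries) and KRT20 (4.81 to 5.38 FPKM in siMTA1 libraries and 3.95 to 4.46 FPKM in control libraries) were detected in each library, while VIL1 and LGALS4 were under 0.1 FPKM throughout. Of 8 epithelial and colon markers tested 2 (25.0%), KRT8 and KRT18, fell and 1 (12.5%), CDH1, rose. The list summed to 5705.4 to 6352.5 FPKM in siMTA1 libraries and 6601.2 to 6921.3 FPKM in control libraries, without overlap. The mesenchymal markers summed to 10.63 to 11.43 FPKM in siMTA1 libraries and 12.28 to 12.96 FPKM in control libraries, with DCN listed at 0 throughout and most of the sum from ACTA2, which fell. The part of either list in the differences given next was not tested. The blood and endothelial markers summed to at most 0.60 FPKM in siMTA1 libraries and 0.68 FPKM in control libraries. Over the 12141 genes that averaged 1 FPKM or more, limma on log2(FPKM + 1) called 2207, or 18.2%, at an adjusted p under 0.05, with 12.1% lower and 6.13% higher in siMTA1 libraries.

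The mitochondrial transcripts as a whole made up a similar share of each library, while single mRNAs and tRNAs within them moved apart. Their summed FPKM was 82795, 78643 and 78831 in siMTA1 libraries and 78518, 81478 and 89411 in control libraries. That was 19.9% to 21.2% of the library's summed FPKM in siMTA1 libraries and 19.9% to 22.2% in control libraries, and the groups overlapped. Without control replicate 3 the mean sum in siMTA1 libraries was 1.001 of that in control libraries, against 0.9634 with it. By class, the 13 mRNAs summed to 51964 ± 2091 FPKM in siMTA1 libraries and 56311 ± 5469 FPKM in control libraries (SD, n = 3 each). The 22 tRNAs summed to 793.0 ± 21.1 FPKM in siMTA1 libraries and 807.4 ± 28.9 FPKM in control libraries. The 2 rRNAs summed to 27333 ± 1879 FPKM in siMTA1 libraries and 26017 ± 185.2 FPKM in control libraries.

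Of the 37 genes, 36 passed the filter on low values, and 9 were lower and 2 higher in siMTA1 libraries by limma at an adjusted p under 0.05. The genes that fell were 4 mRNAs and 5 tRNAs, and those that rose were 1 mRNA and 1 tRNA; neither rRNA passed the test. The share that fell was 25.0%, against 12.1% of all genes tested, and the share that rose was 5.56%, against 6.13%. The median log2 difference of the 36 genes was −0.22 and that of all genes tested −0.05. Without the filter on low values, 1 of the 37 genes, MT-TG, passed the test (adjusted p = 0.0474), and the count was 7 without control replicate 2 and 5 without siMTA1 replicate 2. In bulk RNA, fewer cells with a given level and less RNA per cell cannot be told apart.

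**Figure D1:**
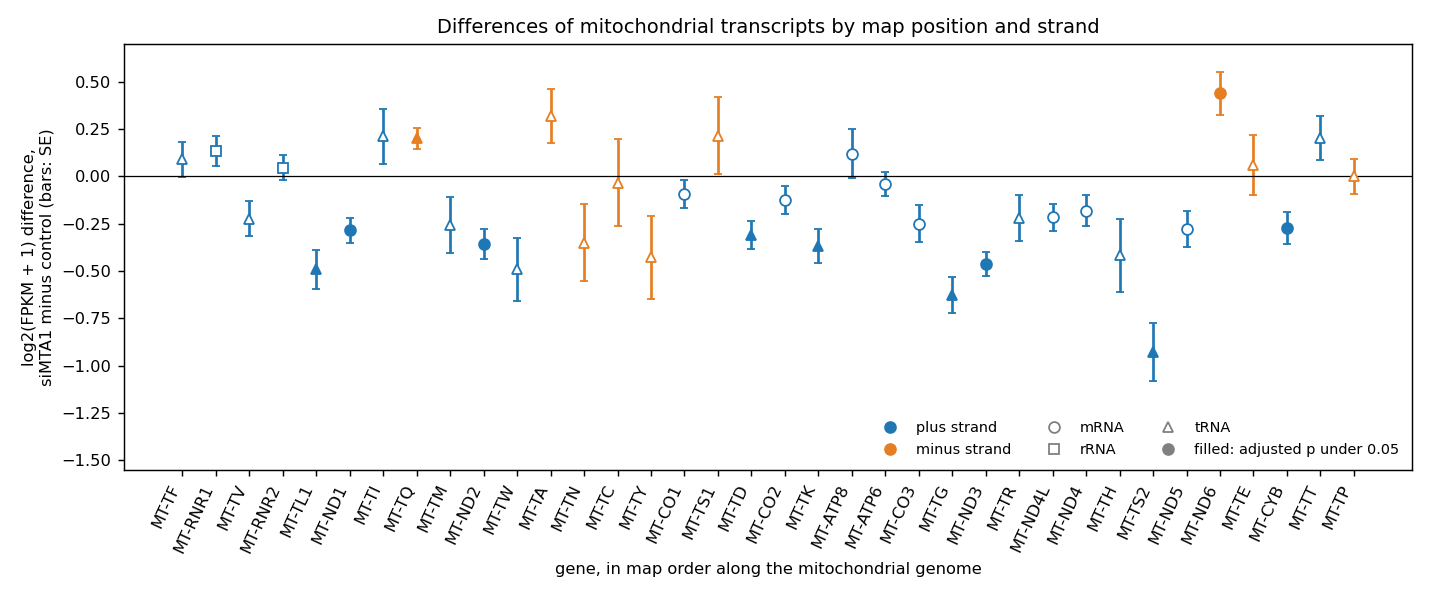
The log2 difference, siMTA1 minus control, of the 36 tested mitochondrial genes on the log2(FPKM + 1) scale, in map order, with error bars of 1 standard error from limma. The 9 genes that fell all lie on the plus strand, and the 2 that rose, MT-ND6 and MT-TQ, on the minus strand.

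Complex I, the NADH dehydrogenase that takes electrons into the respiratory chain, has 7 subunits encoded in the mitochondrial genome. Of their mRNAs, 3 fell and 1 rose, or 42.9% lower and 14.3% higher, against 12.1% and 6.13% of all genes tested. MT-ND3, a small membrane subunit near the junction with the peripheral arm, had 2699.02, 2583.03 and 2504.37 FPKM in siMTA1 libraries and 3405.25, 3515.21 and 3803.44 FPKM in control libraries. All 3 siMTA1 values lay below all 3 control values, and the level in siMTA1 libraries was 0.726 of the control level (log2 difference −0.46, SE 0.0639, limma adjusted p = 0.002105). Over all genes tested, 39.1% did not overlap between the groups in this way, 25.9% with siMTA1 below, and of the mitochondrial genes 12 of 36, or 33.3%, did not overlap, 10 of them with siMTA1 below.

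MT-ND2, a proton-pumping subunit, had 2241.71, 2135.14 and 1944.15 FPKM in siMTA1 libraries and 2503.55, 2661.01 and 2937.31 FPKM in control libraries. MT-ND1, a subunit next to the quinone-binding site, had 2093.89, 2083.22 and 1963.02 FPKM in siMTA1 libraries and 2369.78, 2420.15 and 2694.06 FPKM in control libraries. For both genes the groups did not overlap, with log2 differences of −0.36 for MT-ND2 (SE 0.0777, limma adjusted p = 0.01401) and −0.28 for MT-ND1 (SE 0.0664, adjusted p = 0.01881). MT-ND2 and MT-ND3 passed the test without any 1 of the 6 libraries. MT-ND1 did not without control replicate 2 (adjusted p = 0.0528), siMTA1 replicate 2 (0.0506) or siMTA1 replicate 3 (0.0554).

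The remaining plus-strand complex I mRNAs did not pass the test. MT-ND4L had 2215.12, 2057.83 and 1919.78 FPKM in siMTA1 libraries and 2387.63, 2256.1 and 2542.79 FPKM in control libraries, without overlap (adjusted p = 0.06423 by limma). MT-ND5 had 1634.04, 1472.03 and 1364.39 FPKM in siMTA1 libraries and 1614.76, 1773.2 and 2042.46 FPKM in control libraries (adjusted p = 0.06817), and MT-ND4 had 3063.86, 2886.19 and 2715.43 FPKM in siMTA1 libraries and 2998.63, 3162.54 and 3686.57 FPKM in control libraries (adjusted p = 0.156). Their log2 differences were −0.22, −0.28 and −0.18 in that order, all below 0. Their calls depended on the setting: MT-ND4L passed without siMTA1 replicate 1 (adjusted p = 0.0494), with quantile normalization (0.0473) or with a filter at a mean of 5 FPKM (0.049), and MT-ND5 without control replicate 1 (0.0339), with array weights (0.0233) or with that filter (0.044). MT-ND4 passed with quantile normalization (0.0132), and its log2 difference was −0.09 without control replicate 3. Summed, the 6 plus-strand complex I mRNAs made up 16.846%, 16.807% and 15.744% of the mitochondrial FPKM in siMTA1 libraries and 19.46%, 19.377% and 19.804% in control libraries, so the groups did not overlap in the share either.

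**Figure D2:**
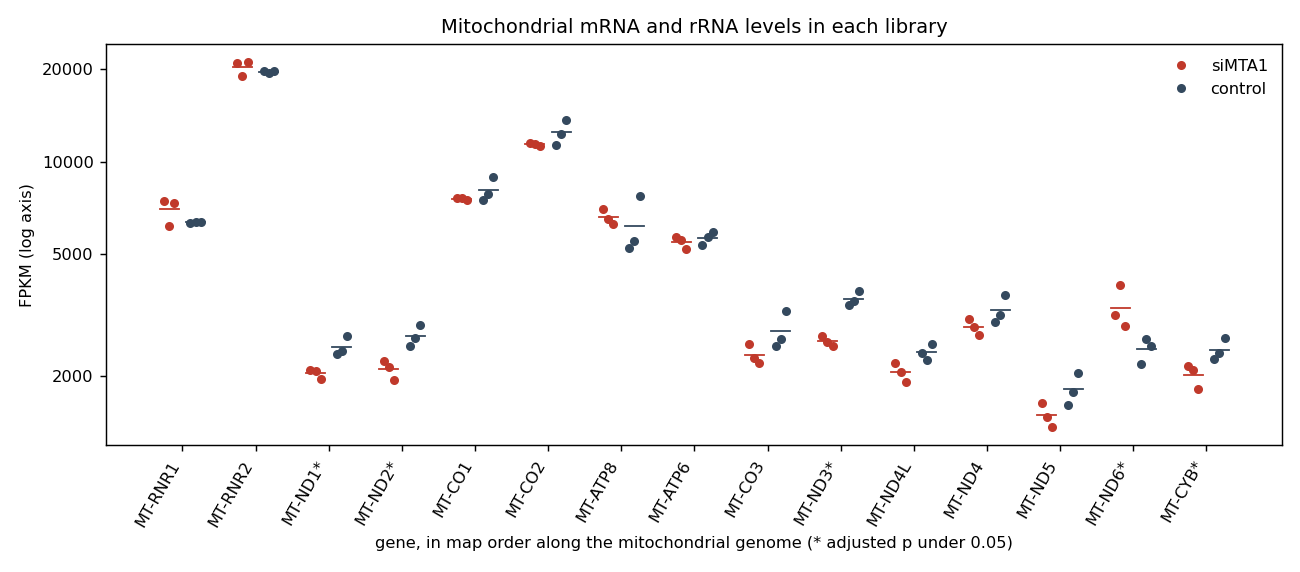
FPKM on a log axis of the 13 mRNAs and 2 rRNAs in each library, in map order, with 1 point per library and a bar at the group mean of 3. MT-ND1, MT-ND2, MT-ND3 and MT-CYB lie lower in all siMTA1 libraries than in any control library, and MT-ND6 lies higher.

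MT-ND6, the complex I subunit encoded on the other strand, moved the opposite way. It had 3154.62, 3960.73 and 2914.39 FPKM in siMTA1 libraries and 2196.64, 2647.53 and 2510.59 FPKM in control libraries. Its mean was 3343.3 ± 548.1 FPKM in siMTA1 libraries and 2451.6 ± 231.2 FPKM in control libraries (SD, n = 3 each), and all siMTA1 values lay above all control values (log2 difference 0.44, SE 0.112, limma adjusted p = 0.02609). The highest value, siMTA1 replicate 2, carried part of the difference: without it the log2 difference was 0.31 and the adjusted p 0.0673, and without control replicate 1 the adjusted p was 0.0677. The sources used here do not give whether the authors' counting used strand, so fragments of MT-ND6 and of RNA copied from the opposite strand could be mixed.

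RNAs that lack a poly(A) tail or stay in the nucleus were set beside MT-ND6. Of 10 such entries tested, 1 rose and none fell by limma at an adjusted p under 0.05, and the other 9 did not pass. Of the 10, 6 had log2 differences above 0 and 4 below 0, with a median of 0.09. MALAT1 was counted more than once, by its main entry (log2 difference 0.183) and by a low one (−0.254). Among all genes tested, 6.13% rose and 12.1% fell, so 1 riser in so short a list does not set these RNAs apart. RN7SK, a small nuclear RNA made by RNA polymerase III that has no poly(A) tail, had 5.74, 6.76 and 6.01 FPKM in siMTA1 libraries and 3.41, 2.83 and 3.89 FPKM in control libraries (log2 difference 0.72, adjusted p = 0.00152). The list summed to 1083.5 to 1486.3 FPKM in siMTA1 libraries and 1078.0 to 1243.2 FPKM in control libraries. Most of that sum came from the main entry of MALAT1, with 994.78 to 1373.64 FPKM in siMTA1 libraries and 984.54 to 1153.15 FPKM in control libraries. The sum therefore says little about the other RNAs of the list. The part of these RNAs in the MT-ND6 difference was not tested.

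MT-CYB encodes cytochrome b, the mitochondrially encoded subunit of complex III, which passes electrons to cytochrome c. It had 2156.12, 2093 and 1820.01 FPKM in siMTA1 libraries and 2268.8, 2387.29 and 2667.39 FPKM in control libraries. The groups did not overlap and the log2 difference was −0.27 (SE 0.0834, limma adjusted p = 0.04932). This call lay at the threshold: it was lost without control replicate 2 (adjusted p = 0.11), control replicate 3 (0.121), siMTA1 replicate 1 (0.052), siMTA1 replicate 2 (0.0912) or siMTA1 replicate 3 (0.133), with the pseudocount of 0.1 (0.0512), and with upper-quartile scaling (0.098), TPM (0.0624), scaling to nuclear genes (0.0655) or median centring (0.107).

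Complex IV, cytochrome c oxidase, passes electrons to oxygen, and none of its 3 mitochondrially encoded subunits passed the test. MT-CO2, the second most abundant transcript of the whole table, had 11486.44, 11438.04 and 11276.63 FPKM in siMTA1 libraries and 11378.32, 12320.13 and 13680.31 FPKM in control libraries (log2 difference −0.12, limma adjusted p = 0.2659). MT-CO1, which holds the catalytic centre, had 7606.38, 7591.92 and 7490.21 FPKM in siMTA1 libraries and 7522.11, 7830.22 and 8907.96 FPKM in control libraries (−0.09, adjusted p = 0.3927). In both genes control replicate 3 was the highest of the 6 libraries, and the siMTA1 values lay within or near the range of the other control libraries. MT-CO3 had 2537.04, 2289.02 and 2207.35 FPKM in siMTA1 libraries and 2507.19, 2647.66 and 3255.99 FPKM in control libraries (−0.25, adjusted p = 0.1008), and passed with quantile normalization (−0.30, adjusted p = 0.0154). Without control replicate 3 the log2 differences were −0.05 for MT-CO2, −0.02 for MT-CO1 and −0.14 for MT-CO3.

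ATP synthase makes ATP from the proton gradient, and its 2 mitochondrially encoded subunits lie on 1 transcript whose reading frames share 46 bases, chrM:8527-8572. That stretch is shown because fragments in it belong to both genes, which makes their separate levels uncertain. Capitals mark the start codon of MT-ATP6 and the stop codon of MT-ATP8.
MT-ATP8 and MT-ATP6: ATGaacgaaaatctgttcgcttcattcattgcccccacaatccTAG

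MT-ATP6 had 5676.69, 5577.72 and 5200.75 FPKM in siMTA1 libraries and 5340.71, 5671.83 and 5901.28 FPKM in control libraries (log2 difference −0.04, limma adjusted p = 0.6982). MT-ATP8 had 7038.44, 6510.57 and 6288.45 FPKM in siMTA1 libraries and 5251.48, 5522.58 and 7742.26 FPKM in control libraries (0.12, adjusted p = 0.5389). The groups overlapped in both, and for MT-ATP8 the overlap came from control replicate 3 alone. Without that library MT-ATP8 passed the test with a log2 difference of 0.29 (adjusted p = 0.0284). Control replicate 3 was the highest of the 6 libraries in 12 of the 12 plus-strand mRNAs, and siMTA1 replicate 3 the lowest in 11.

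The 2 rRNAs of the mitochondrial ribosome lie near the start of the plus-strand precursor. MT-RNR2, the large-subunit rRNA and the most abundant transcript of the table, had 20922.45, 18974.33 and 21108.88 FPKM in siMTA1 libraries and 19694.68, 19471.83 and 19833.01 FPKM in control libraries (log2 difference 0.05, limma adjusted p = 0.6443). MT-RNR1, the small-subunit rRNA, had 7460.47, 6189 and 7343.88 FPKM in siMTA1 libraries and 6303.64, 6370.24 and 6378.04 FPKM in control libraries (0.13, adjusted p = 0.245). In both genes siMTA1 replicate 2 was the lowest and the other siMTA1 libraries the highest of the 6, so the spread was wider among siMTA1 libraries (SD 702.8 FPKM for MT-RNR1, against 40.9 FPKM in control libraries). Neither rRNA passed even an unadjusted p under 0.05.

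**Figure D3:**
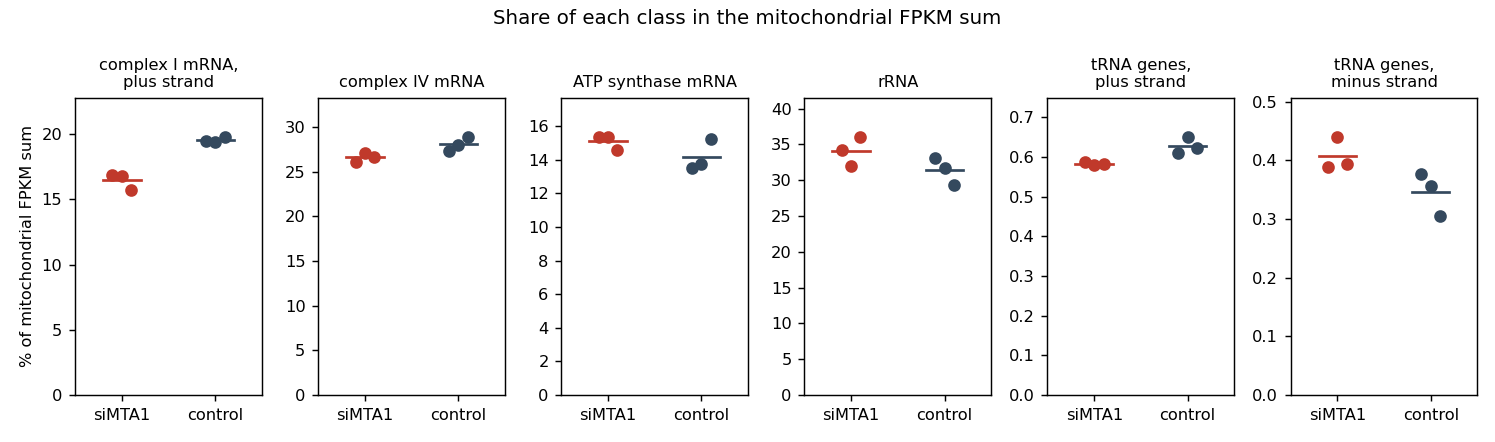
Share of the mitochondrial FPKM sum taken by each class, in percent, with 1 point per library and a bar at the mean of 3. Plus-strand complex I mRNAs, complex IV mRNAs and plus-strand tRNAs take a smaller share in all siMTA1 libraries, and minus-strand tRNAs a larger one. In summed FPKM the groups overlap for complex IV mRNAs and plus-strand tRNAs.

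The 22 tRNAs carry amino acids to the mitochondrial ribosome and mark the cutting sites of the precursors. Of the 21 tested, 5 fell and 1 rose, or 23.8% lower and 4.76% higher, against 12.1% and 6.13% of all genes tested. Most tRNA genes were low: 12 had at most 50 fragments implied in every library. The most abundant 5, MT-TF, MT-TV, MT-TQ, MT-TA and MT-TL1, held 72.7% to 78.4% of the tRNA sum. MT-TL1, between the large rRNA and MT-ND1, was the most deeply covered that fell, with 77.35, 55.69 and 63.75 FPKM in siMTA1 libraries and 88.88, 90.18 and 96.42 FPKM in control libraries. That rested on 333, 280 and 293 implied fragments in siMTA1 libraries and 289, 383 and 472 in control libraries (log2 difference −0.49, SE 0.102, limma adjusted p = 0.01189), and the groups did not overlap in FPKM.

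MT-TS2, which lies between MT-TH and MT-TL2 upstream of MT-ND5, had the greatest drop of the tested members, with 3.84, 5.56 and 3.04 FPKM in siMTA1 libraries and 9.38, 8.98 and 7.53 FPKM in control libraries. Its log2 difference was −0.93 (SE 0.152, limma adjusted p = 0.004287), on 46 fragments in all siMTA1 libraries and 83 in all control libraries. MT-TG, directly upstream of MT-ND3, had 3.59, 2.63 and 3.12 FPKM in siMTA1 libraries and 5.09, 5.97 and 4.96 FPKM in control libraries, on 39 fragments in siMTA1 libraries and 60 in control libraries (−0.63, SE 0.0951, adjusted p = 0.003118). Both calls, and that of MT-TL1, held without any 1 of the 6 libraries. On so few fragments, counting error is a large part of each value, and the pseudocount of 1 understates the fold change.

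MT-TD and MT-TK lie to either side of MT-CO2. MT-TD had 27.67, 29.62 and 30.47 FPKM in siMTA1 libraries and 32.57, 38.43 and 38.75 FPKM in control libraries (log2 difference −0.31, limma adjusted p = 0.02185). MT-TK had 7.22, 7.89 and 7.69 FPKM in siMTA1 libraries and 11.2, 8.58 and 10.72 FPKM in control libraries (−0.37, adjusted p = 0.02115). The MT-TK values rested on 29, 37 and 33 implied fragments in siMTA1 libraries and 34, 34 and 49 in control libraries, so counting error is large here too. The groups did not overlap in FPKM for either gene, but the calls leaned on single libraries. MT-TD lost its call without control replicate 2 (adjusted p = 0.0875), control replicate 3 (0.0605), siMTA1 replicate 1 (0.0691) or siMTA1 replicate 2 (0.0624). MT-TK lost it without control replicate 1 (0.0517), control replicate 3 (0.0567), siMTA1 replicate 1 (0.063) or siMTA1 replicate 2 (0.0527), and with array weights (log2 difference −0.21, adjusted p = 0.0772).

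MT-TQ, on the minus strand, had 131.62, 127.42 and 129.18 FPKM in siMTA1 libraries and 107.01, 114.78 and 115.76 FPKM in control libraries, on 334 to 615 implied fragments a library. The groups did not overlap (log2 difference 0.20, SE 0.0544, limma adjusted p = 0.03218). Without control replicate 1, control replicate 2, siMTA1 replicate 1, siMTA1 replicate 2 or siMTA1 replicate 3 the adjusted p was 0.0706, 0.0874, 0.0886, 0.0754 and 0.0684 in that order. Its 3′ end overlaps that of MT-TI on the other strand, so without strand in the counting the fragments there cannot be told apart.

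Of the other tRNAs, MT-TF, the first gene of the plus-strand precursor, was the most abundant, with 179.85, 197.71 and 187.99 FPKM in siMTA1 libraries and 156.6, 171.61 and 205.86 FPKM in control libraries, and overlapped between the groups (log2 difference 0.09, limma adjusted p = 0.5166). MT-TA, on the minus strand, had 69.68, 113.94 and 96.25 FPKM in siMTA1 libraries and 72.21, 70.38 and 76.83 FPKM in control libraries (0.32, adjusted p = 0.1414), with siMTA1 replicate 1 the lowest of the 6 and the other siMTA1 libraries the highest. Without siMTA1 replicate 1 MT-TA passed the test (0.51, adjusted p = 0.00877), and without siMTA1 replicate 2 its log2 difference was 0.16. MT-TW had a log2 difference of −0.49 and an adjusted p of 0.0689, and passed without siMTA1 replicate 1 (−0.67, adjusted p = 0.0207). The other 12 that were tested and not called, MT-TV, MT-TI, MT-TM, MT-TN, MT-TC, MT-TY, MT-TS1, MT-TR, MT-TH, MT-TE, MT-TT and MT-TP, had log2 differences of −0.43 to 0.22 and adjusted p of 0.1179 or more. Of these, MT-TH passed without control replicate 3 (−0.68, adjusted p = 0.00909) or with array weights (−0.74, 0.01), MT-TV without siMTA1 replicate 1 (−0.32, 0.0397) or with array weights (−0.30, 0.0164), and MT-TN without siMTA1 replicate 1 (−0.58, 0.0483). MT-TL2, the leucine tRNA for CUN codons, was not tested, with 0.98, 0.42 and 0.92 FPKM in siMTA1 libraries and 0.97, 1.49 and 0.65 FPKM in control libraries.

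**Figure D4:**
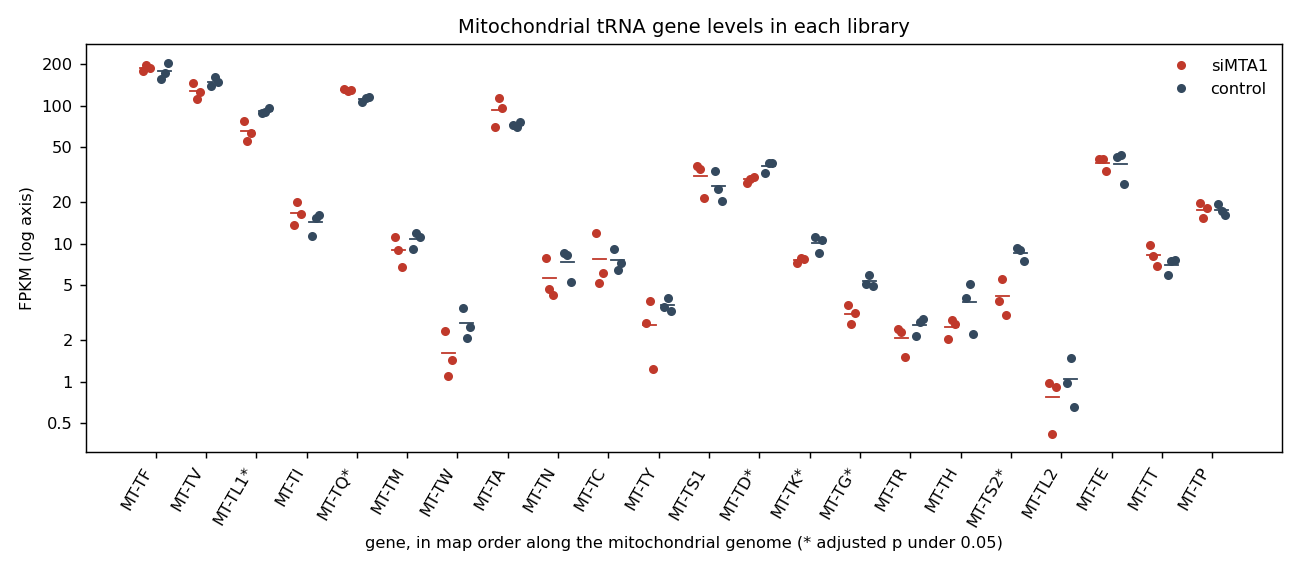
FPKM on a log axis of the 22 tRNA genes in each library, in map order, with 1 point per library and a bar at the group mean of 3. MT-TS2, MT-TG, MT-TL1, MT-TK and MT-TD lie lower in all siMTA1 libraries than in any control library, and MT-TQ lies higher.

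By strand, 9 of the 27 plus-strand genes tested fell and none rose, or 33.3% lower against 12.1% of all genes tested, with a median log2 difference of −0.25. Of the 9 minus-strand genes, 2 rose and none fell, or 22.2% higher against 6.13% of all genes tested, with a median of 0.06. The planned counts were by direction and gene class, and the split by strand was not tested. MT-ND6 and MT-TQ, the 2 that rose, did not pass without control replicate 1 or without siMTA1 replicate 2. Without control replicate 3 MT-ATP8 rose on the plus strand, and without siMTA1 replicate 1 MT-TN fell on the minus strand, as given above. Minus-strand tRNAs summed to 321.43, 346.13 and 310.44 FPKM in siMTA1 libraries and 295.57, 290.05 and 272.03 FPKM in control libraries, so the groups did not overlap. Most of that difference came from MT-TA (mean 93.29 FPKM in siMTA1 libraries, 73.14 FPKM in control libraries) and MT-TQ (129.41 and 112.52 FPKM). Of the 8 minus-strand tRNAs, 4 had log2 differences above 0 and 4 below 0, with a median of 0.03. Plus-strand tRNAs summed to 487.08, 455.39 and 458.53 FPKM in siMTA1 libraries and 478.76, 530.42 and 555.44 FPKM in control libraries, and the groups overlapped. As a share of the mitochondrial FPKM, plus-strand tRNAs held 0.5883%, 0.57906% and 0.58166% in siMTA1 libraries and 0.60975%, 0.651% and 0.62122% in control libraries, without overlap. Along the plus strand, the start position and the log2 difference had a Spearman correlation of −0.398 over 14 mRNA and rRNA genes and −0.247 over 13 tRNA genes, a description over genes that share precursors and libraries.

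By the end of the reading frame, the 6 mRNAs whose annotated length is not a multiple of 3, so that a tail is needed to complete the stop codon, were MT-ND1, MT-ND2, MT-CO3, MT-ND3, MT-ND4 and MT-CYB. Of these 4 fell, or 66.7% against 12.1% of all genes tested, with a median log2 difference of −0.28 over the 6. Of the other 7 mRNAs, none fell and 1 (14.3%, against 6.13% of all genes tested), MT-ND6, rose, with a median of −0.09. This grouping was made with the calls known, over genes that share precursors and libraries, and was not tested.

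Ratios of neighbouring genes cancel the scaling of a library, and 5 were compared by a two-sided exact permutation test, whose smallest possible p with 3 against 3 libraries is 0.1. MT-ND6 to MT-ND5, neighbours on opposite strands, was 1.931, 2.691 and 2.136 in siMTA1 libraries and 1.36, 1.493 and 1.229 in control libraries, 1.655-fold higher in siMTA1 libraries without overlap (exact p = 0.1, 0.25 adjusted over the 5 ratios). MT-ND3 to MT-CO3, neighbours on the same strand with MT-TG between them, was 1.064, 1.128 and 1.135 in siMTA1 libraries and 1.358, 1.328 and 1.168 in control libraries (exact p = 0.1, adjusted 0.25). These 2 ratios did not overlap between the groups, and neither could pass 0.05 in this design.

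The other ratios overlapped. MT-RNR1 to MT-RNR2 was 0.3566, 0.3262 and 0.3479 in siMTA1 libraries and 0.3201, 0.3272 and 0.3216 in control libraries (exact p = 0.2, adjusted 0.333). MT-ATP8 to MT-ATP6 was 1.24, 1.167 and 1.209 in siMTA1 libraries and 0.9833, 0.9737 and 1.312 in control libraries (exact p = 0.4, adjusted 0.5). MT-ND4L to MT-ND4, whose reading frames share 7 bases, was 0.723, 0.713 and 0.707 in siMTA1 libraries and 0.7962, 0.7134 and 0.6897 in control libraries (exact p = 0.8, adjusted 0.8).

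**Figure D5:**
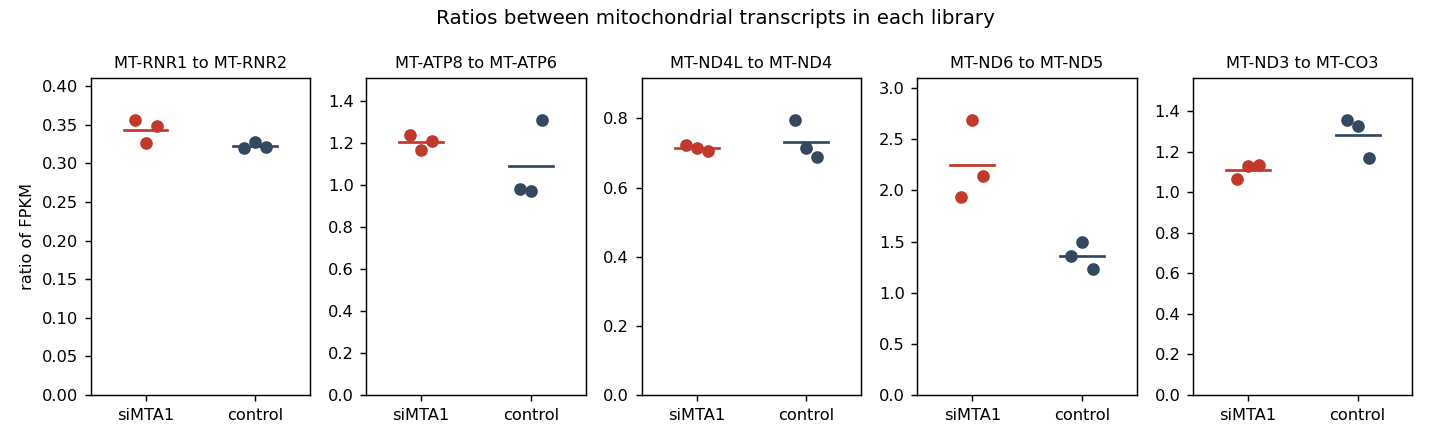
Ratio of the FPKM of 5 pairs of neighbouring mitochondrial genes, with 1 point per library and a bar at the mean of 3. MT-ND6 to MT-ND5 lies higher in all siMTA1 libraries than in any control library, MT-ND3 to MT-CO3 lies lower, and the other ratios overlap.

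The nuclear genome holds copies of mitochondrial sequence, and fragments of near-identical copies could be split between them and the mitochondrial gene, so both levels are uncertain. Of the 76 such copies listed, 7 were tested, and 1 fell and 1 rose. Each was 14.3% of those tested, against 12.1% lower and 6.13% higher among all genes tested. In so short a list, 1 call in either direction does not set these copies apart. MTATP6P1, at chr1:633696-634376, was the most abundant, with 1205.45, 1199.04 and 1229.26 FPKM in siMTA1 libraries and 1105.49, 1247.39 and 1391.23 FPKM in control libraries, 20.7% to 23.6% of the level of MT-ATP6 (limma adjusted p = 0.774). MTND2P28, at chr1:629640-630683, had 42.4, 35.45 and 28.07 FPKM in siMTA1 libraries and 56.76, 49.76 and 62.09 FPKM in control libraries and fell, as MT-ND2 did (log2 difference −0.67, SE 0.131, adjusted p = 0.00923). MTRNR2L1, MTRNR2L12, MTND6P4 and MTND1P23 did not pass the test, though MTRNR2L12 did without control replicate 1 (0.38, adjusted p = 0.0214) and MTND1P23 without siMTA1 replicate 2 (−0.62, 0.0446) or with array weights (−0.56, 0.0361). MTND6P21, named after its values were seen, had 1.16, 1.3 and 1.59 FPKM in siMTA1 libraries and 0.86, 0.88 and 0.6 FPKM in control libraries (0.40, adjusted p = 0.0194), a call lost without control replicate 3 (0.0534), siMTA1 replicate 2 (0.0564) or siMTA1 replicate 3 (0.0556).

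Nuclear genes that act on mitochondrial DNA and RNA were read from the same fit. So were regulators of mitochondrial biogenesis and genes of complex IV assembly and mitochondrial translation. The 8 lists together held 126 tested genes. Of these, 26 fell and none rose, a share of 20.6% beside 12.1% of all genes tested. Of the 26, 10 passed the test without any 1 of the 6 libraries (REXO2, DDX28, PDE12, YRDC, TRMT61B, RPUSD3, TFB1M, RRM2B, COA3 and SCO2), and 16 lost the call in at least 1 of those fits, with adjusted p up to 0.165.

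In mitochondrial transcription, 2 of 9 tested genes (22.2%, against 12.1% of all genes tested) fell by limma. These were TFB2M, the factor that opens the promoter for the polymerase (log2 difference −0.33, adjusted p = 0.0257), and MRPL12, a ribosomal protein that also binds the polymerase (−0.23, adjusted p = 0.0483). The polymerase POLRMT (−0.10, adjusted p = 0.436) and the packaging factor TFAM (−0.05, adjusted p = 0.724) did not pass the test. Among 7 genes of RNA cleavage none passed, and 1 had an unadjusted p under 0.05; the smallest adjusted p were those of PTCD1 (−0.15, 0.112) and FASTKD5 (−0.14, 0.304).

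In RNA stability and polyadenylation, 5 of 16 (31.2%, against 12.1% of all genes tested) fell. They were REXO2, which degrades short RNA fragments (log2 difference −0.46, limma adjusted p = 0.000525), DDX28, a helicase of ribosome assembly (−0.39, 0.00427), PDE12, which removes poly(A) tails in mitochondria (−0.34, 0.00799), FASTKD2, an RNA-binding protein (−0.23, 0.0403), and TBRG4, also an RNA-binding protein of the FASTK family (−0.23, 0.0463). LRPPRC (−0.16, adjusted p = 0.101) and SLIRP (−0.18, 0.0983), which together hold mitochondrial mRNAs stable, and MTPAP, the poly(A) polymerase (0.00, 0.962), did not pass the test.

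In tRNA maturation 7 of 18 (38.9%, against 12.1% of all genes tested) fell, TRMT61B, YRDC, TRMT1, TRMT5, QTRTD1, MTO1 and TRNT1, with log2 differences of −0.33 to −0.22 and limma adjusted p of 0.00706 to 0.0392. TRMT1, MTO1 and TRNT1 each kept the call in 1 of the 6 fits without 1 library, QTRTD1 in 2 and TRMT5 in 3. TRNT1 adds the CCA end to tRNAs (−0.22, adjusted p = 0.0369), and MTO1 takes part in modifying the wobble base (−0.23, 0.036). In rRNA modification 5 of 15 (33.3%) fell, MRM1 (−0.39, 0.0131), TRMT61B (−0.33, 0.0108), RPUSD3 (−0.33, 0.0101), TFB1M (−0.30, 0.0119) and TRUB2 (−0.26, 0.0359). TFB1M dimethylates the small rRNA and MRM1 methylates the large one.

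In upkeep of mitochondrial DNA 3 of 24 tested genes fell, or 12.5%, close to the 12.1% of all genes tested: RRM2B (log2 difference −0.49, limma adjusted p = 0.00202) and TK2 (−0.24, 0.0459), which supply deoxynucleotides, and SUCLA2 (−0.24, 0.03), a succinyl-CoA ligase subunit. Of 13 tested regulators of mitochondrial biogenesis none passed, and 2 had an unadjusted p under 0.05, ESRRA (−0.18, adjusted p = 0.11) and YY1 (−0.16, 0.134) having the smallest adjusted values. In complex IV assembly and mitochondrial translation 5 of 25 fell: COA3 (−0.52, 0.00815), SCO2 (−0.40, 0.00682), COX10 (−0.30, 0.0273), MTIF2 (−0.26, 0.0481) and COX11 (−0.26, 0.0194). The complex IV mRNAs of the mitochondrial genome itself, as given above, did not pass the test.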

How the data were processed

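RNA sequencing of HCT116 cells was analysed from the FPKM that the authors deposited, which are fragments per length of the gene and per size of the library, printed to 2 decimals for 36651 genes in 6 libraries. The submitters' processing notes name cutadapt, TopHat2, edgeR and GRCh38, with no versions or roles. The sources used here do not give the counting tool, its strand setting or the annotation release. Columns were assigned to samples by name, and 0 columns of values were left unassigned.

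The 12141 genes that averaged 1 FPKM or more were tested on log2(FPKM + 1) with limma 3.58.1 (lmFit and eBayes with a trend) in R 4.3.3, two-sided, siMTA1 minus control, with Benjamini-Hochberg adjustment over all tested genes and a threshold of 0.05. Fold changes are on that scale, which understates the change of low genes. Single ratios and MTA1 were compared by exact permutation over the libraries. Fragment numbers were derived from the steps of low FPKM values in short genes, since depth is not given, and cover counting error only. The procedure was tested on simulated data. Coordinates and sequences came from GENCODE 29 on GRCh38, in which 35749 of the table's identifiers were found; lengths in the authors' values may differ.

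Every gene on chrM was named, with MTA1, the members that passed the threshold (or the 2 smallest adjusted p where none passed) in 8 lists of nuclear genes, 3 lists of cell type markers and 1 list of RNAs without a poly(A) tail or kept in the nucleus, and the 6 most abundant nuclear copies. The members and lists were chosen with earlier results of these data known. Genes added beyond that rule (POLRMT, TFAM, LRPPRC, SLIRP, MTPAP, MTND6P21, KRT19, CDX2, KRT20, VIL1, LGALS4, DCN and MALAT1) were chosen after their values were seen. Alternatives were another pseudocount, other filters, quantile, upper-quartile, TPM and nuclear-gene scaling, a replicate block, array weights and leaving out each library; median centring, and upper-quartile and TPM scaling of the class sums, were added after seeing the data.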

Additional observations from a re-analysis of the deposited data

How the results depend on the processing

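The count over all genes was 2207; it was 676 without a filter on low values, 4049 with array weights, and 1046 to 1780 without 1 library, lowest without control replicate 2 and 1068 without siMTA1 replicate 2. The 11 mitochondrial calls became 1 without a filter (1 lower, 0 higher) and ranged from 5 to 12 without 1 library (5 to 10 lower, 0 to 3 higher). The genes called higher and lower numbered 744 and 1463, against 1011 and 895 with quantile normalization, 1000 and 939 with upper-quartile scaling, 1128 and 802 with median centring, and 297 and 379 without a filter. Deviations from the group means correlated at 0.331, 0.0219 and 0.219 between libraries of the same number, and at −0.277 to 0.0712 between libraries of different numbers. Replicates 1 and 3 correlated best with their own number, while siMTA1 replicate 2 correlated no better with control replicate 2 than with control replicate 3 (0.0221). The labels do not say whether the numbers pair the libraries, and pairing was not tested. The replicate block gave 3031 calls over all genes and 11 mitochondrial ones, in which MT-TW (adjusted p 0.00537) took the place of MT-CYB (0.0827); of the nuclear copies MTND1P23 (0.0337) and MTRNR2L1 (0.0389) also passed with it. The ratio of MT-ND4L to MT-ND4 was 1.018 in siMTA1 over control without control replicate 1 (0.9464 to 1.018 over the 6 fits). The log2 differences that changed sign were those of MT-ATP6 (0.00567 with upper-quartile scaling, 0.0147 with median centring); MT-TC (0.0183 quantile, 0.00667 upper-quartile, 0.179 array weights, 0.0213 median centring, −0.349 to 0.178 without 1 library); MT-TE (−0.0948 array weights, −0.155 to 0.181 without 1 library); MT-TP (0.0429 quantile, 0.0426 upper-quartile, 0.0157 TPM, 0.00624 nuclear genes, 0.0221 array weights, 0.0541 median centring, −0.078 to 0.0928 without 1 library); MTATP6P1 (0.00823 upper-quartile, 0.0173 median centring, −0.121 to 0.0446 without 1 library); MTND6P4 (−0.0231 array weights, −0.0438 to 0.216 without 1 library); and MTRNR2L12 (−0.0271 to 0.379 without 1 library). None of these had passed the test, and the cause of the changes was not tested. MT-TG passed under each alternative that tested it, and MT-ND2, MT-ND3, MT-TL1 and MT-TS2 under each except no filter. The MTA1 difference kept its direction without any 1 library. The sums of mRNAs and of rRNAs in siMTA1 over control kept theirs with nuclear-gene, upper-quartile and TPM scaling and without any 1 library; that of tRNAs (0.9821) was 1.013 with upper-quartile scaling, and that of all mitochondrial genes (0.9634) was 1.001 without control replicate 3. Depth limits the 12 tRNAs with at most 50 implied fragments in every library.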
